A study of Mus musculus with 12 samples.

Results

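The left ventricles of 4 control mice aged 6 months gave the baseline expression profile described here, taken from a series of 12 left ventricles that also holds hearts in which Nkx2-5, a transcription factor of heart muscle, was deleted from the trabeculae. The members were chosen by label: the 4 samples titled as controls were used, and the other samples were not compared with them. A probe was counted as expressed where the scanner software marked it well above background on all 4 control arrays. This held for 21720 of 55681 probes (39.0%), which stand for 16314 of 34844 gene names.

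Per the study's methods, the control mice were littermates with floxed Nkx2-5 alleles (Nkx2-5 ΔNeo fl/fl) and an intact connexin 40 gene (Cx40+/+), without the tamoxifen-inducible Cx40-creERT2 allele, so that the floxed gene stayed in place. The labels give these samples as control without injection, while the methods describe tamoxifen given to pregnant females, so whether the control litters were exposed to tamoxifen is not settled by the sources used here. Total RNA was taken from the left ventricular wall with the apex and without the septum. Each array carried RNA from 1 mouse, labelled with Cy3, and the 4 are named heart 1 to heart 4. Strain and sex are not given in the labels.

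The adult ventricle is a muscle that never rests. Its cardiomyocytes hold sarcomeres, in which thick filaments of myosin pull on thin filaments of actin under the control of troponin, tropomyosin and calcium, and they are packed with mitochondria that make ATP mostly from fatty acids. Many of these proteins are made from small gene families in which one copy serves the ventricle and the others serve the atrium, skeletal muscle, the fetus or non-muscle cells. Endothelial cells, fibroblasts, smooth muscle and macrophages lie between the muscle cells. In RNA from whole tissue, fewer cells of a type and less RNA per cell cannot be told apart.

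All values are log2 of the processed probe signal. The ranking used the signal as deposited, and the values per heart were quantile normalized between the 4 arrays. Means are given with SD over n = 4 hearts. A signal rank describes probes and not transcript abundance, because probes differ in how well they bind. In the 3919 genes with several expressed probes, 2 probes of the same gene differed by a median of 1.34 on this scale, and in 1 of every 10 of the 7410 probe pairs by more than 4.23 (the 90th percentile).

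The labelled tissue was checked against its markers. The 7 ventricular muscle markers (Myl2, Myl3, Myh6, Tnni3, Actc1, Mybpc3 and Irx4) were expressed in all 4 hearts, with a median signal of 17.35. The 6 endothelial, 5 fibroblast, 4 smooth muscle and 5 macrophage markers were also expressed, with medians of 11.14, 10.73, 11.16 and 10.12. Of 7 skeletal muscle markers 2 were expressed, and the probes for Myh1, Myh2, Myh4, Mylpf and Actn3 were not above background on any array. In a longer list of 15 skeletal muscle genes, 7 were expressed, at a median signal of 9.41. Of 5 atrial markers 4 were expressed, without Bmp10, and of 5 conduction system markers 3, without Cntn2 and Hcn4. Nkx2-5, the gene deleted elsewhere in the series, gave 12.01, 12.28, 11.98 and 11.94 in hearts 1 to 4.

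The 4 arrays lay on 1 slide and correlated with r of 0.989 to 0.993 over the expressed probes. Probes above background numbered 25243, 25092, 23534 and 22876 in hearts 1 to 4, and no spot was saturated. The lowest signal well above background was 4.47, 4.51, 4.75 and 4.86, so that hearts 1 and 2 had the lower detection limits. Heart 1 stood apart in its sex-linked genes. Ddx3y, a Y-linked RNA helicase, gave 10.18 in heart 1 and was not above background in hearts 2 to 4. Xist, the RNA that silences an X chromosome in females, was not above background in heart 1 and gave 7.39, 7.26 and 7.46 in hearts 2 to 4. The spread of the gene lists in which heart 1 stood apart is therefore also given without it.

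Some of the sequences behind these signals are shown here, because the identity of a bright probe decides what its rank means. The probes are 60 bases long. The first 30 bases are given for the probes of cardiac genes and of the related genes they are set against below, in probe order.
Myl3: acctgtgcttgcctttctgtatccaccctg
Actc1: ctctcatcagtcattgtacagtttgtttac
Acta1: acatcgacatcaggaaggacctgtacgcca
Myh6: gcacgacgaggaataacctctccagcagac
Myh7: atgaggagtagctcttgtgctacccagctc
Cox6a2: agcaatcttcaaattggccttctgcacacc
Cox6a1: ggaccacgaaaaccctttggatgctaagct
Tnni3: gtggacaaagtggatgaagagagatatgac

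Each of these paralogue pairs, Actc1 with Acta1, Myh6 with Myh7 and Cox6a2 with Cox6a1, was measured by probes whose listed accessions belong to 1 gene. By contrast, 4 of the brightest probes, named for unrelated genes, had a run of 22 bases in common, shown in capitals within 30 bases of each probe.
Glrx2: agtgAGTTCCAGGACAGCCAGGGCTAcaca
Elk1: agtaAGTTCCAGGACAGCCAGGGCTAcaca
Med16: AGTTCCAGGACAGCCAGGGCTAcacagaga
Kctd14: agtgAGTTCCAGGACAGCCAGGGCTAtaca

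The shared run resembles the mouse B1 element, a short interspersed repeat found in many transcripts. The probes gave 17.71 (Glrx2), 17.47 (Elk1), 16.79 (Med16) and 17.70 (Kctd14), and they were the only 4 expressed probes that held the run on this strand, while 2 held its reverse complement. The signal of such a probe cannot be assigned to the gene whose name it carries. Among the 100 brightest genes, 40 had a probe sharing at least 20 bases with a probe of another name, against 9.06% of all 16314 expressed genes. Among the brightest 1000 genes the share with such a run was 40.2%. A probe listed for several RefSeq genes was found for 7 of the brightest 100, against 1.02% of all. A probe with 1 RefSeq gene and no such shared run was found for 52 of the brightest 100, against 11026 of all 16314. A shared run is stated where 1 of the first 30 names below has it.

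The brightest expressed gene was Myl3, the ventricular essential light chain of myosin, at 18.30. The expressed genes ranged from 4.81 to 18.30 with a median of 9.01. Aldoa, the aldolase of glycolysis in muscle, followed at 18.30. The muscle-type cytochrome oxidase subunits Cox6a2 and Cox7a1 came next, at 18.25 each. Cardiac alpha actin, Actc1, gave 17.998, and Myh6, the alpha myosin heavy chain of the adult mouse heart, gave 17.95. These 6 genes had SDs of 0.02 to 0.06 over the 4 hearts. At such high ranks quantile normalization gives every array the same values, so these SDs reflect exchanged ranks and not a measured spread. The order of Myl3 and Aldoa, and that of Cox6a2 and Cox7a1, was not the same in every heart.

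Below these came Tpm1, the main cardiac tropomyosin, at 17.74, and Slc25a4, the heart and muscle ATP/ADP carrier of the inner mitochondrial membrane, at 17.73. Cox4i1, Mdh2 and Chchd10, 3 mitochondrial genes, gave 17.59, 17.50 and 17.48. Gapdh gave 17.50 on a probe that shares sequence with probes of other names. The Z disc protein Tcap (telethonin) gave 17.43, the small heat shock protein Cryab, which protects desmin and titin, gave 17.42, and the ventricular regulatory light chain Myl2 gave 17.35. Myoglobin (Mb), which stores oxygen in the muscle cell, gave 17.31, 17.26, 17.31 and 17.33 in hearts 1 to 4. The first 30 names also include the respiratory chain and ATP synthase genes Ndufs6, Atp5g1 and Ndufa13 (17.41, 17.24 and 17.21, of which the first 2 have probes with a shared run), and the growth-related Tpt1 (17.18). Others carry a shared run, list several genes or hold no gene symbol, among them Slc10a1, Glrx2, Kctd14, Elk1, Exosc2 and locus or clone names.

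Taking the 100 brightest genes with 1 RefSeq gene and no shared run, 32 were respiratory chain, ATP synthase or carrier genes and 12 were myofilament or Z disc genes. Citric acid cycle genes and fatty acid genes numbered 8 each, glucose genes 4, the oxygen and creatine kinase energy buffer 3 (Mb, Ckmt2 and Ak1), ribosomal protein genes 3 and calcium handling 1. The calcium gene was Hrc, the histidine-rich calcium binding protein of the sarcoplasmic reticulum, at 16.84 ± 0.07. The remaining 29 were in none of these lists and included Fth1, the ferritin heavy chain, and Sod2, the mitochondrial superoxide dismutase, which were chosen after their values were seen.

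**Figure D1:**
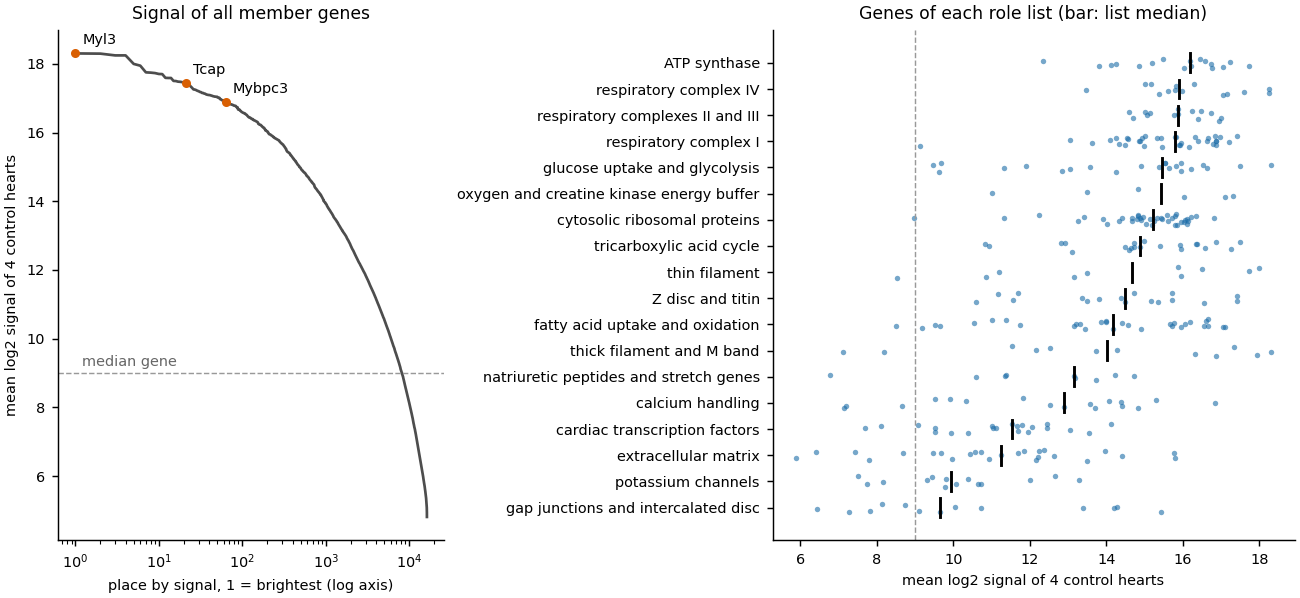
Left, mean log2 signal of the 16314 expressed genes against their place in the ranking (log axis), with 3 muscle genes named. Right, each listed gene as a point by role, with the median of each list marked. The lists of the respiratory chain and ATP synthase have medians of 15.79 to 16.20, against 9.01 for all expressed genes.

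Functional lists were then read as a whole against the brightest 5% of expressed genes, which are 816 genes with a signal of at least 14.28. Of 338 listed genes that were expressed, 183 (54.1%) lay in the brightest 5%. The genes of oxidative phosphorylation stood highest, with 70 of 80 there. Complexes II and III, which pass electrons from succinate and ubiquinol to cytochrome c, had all 14 of their measured genes in it, at a median of 15.87. Complex IV had 13 of 14 (median 15.91), ATP synthase with its carriers 13 of 17 (16.20), and complex I 30 of 35 (15.79). Of the probes placed on mitochondrial DNA, those for 6 subunits were of a like height. COX1 gave 17.13, CYTB 16.78, ND2 16.30, and ND4, ND1 and ND5 gave 15.48, 15.42 and 15.31. Probes named COX2 and ND4L, annotated to chromosome 1 and so not among these 6, gave 16.57 and 16.46. ND6, which is transcribed from the other strand of the mitochondrial genome, gave 6.24 ± 0.30.

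Fuel genes followed. Glycolysis and glucose uptake had 13 of 22 genes in the brightest 5% (median 15.46), the citric acid cycle 16 of 21 (14.89) and fatty acid uptake and oxidation 15 of 31 (14.19). Among contractile genes, the thin filament had 5 of 10 (median 14.68), the Z disc and titin 10 of 17 (14.498) and the thick filament 6 of 12 (14.01). Each of these lists also holds copies used in other muscles. Titin itself (Ttn), the giant spring of the sarcomere, gave 15.72 ± 0.09. The cytosolic ribosomal proteins had 33 of 40, with a median of 15.22.

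Regulatory genes lay lower. Calcium handling had 5 of 17 genes in the brightest 5% (median 12.90), the natriuretic peptide and stretch list 1 of 9 (13.15), the extracellular matrix 3 of 25 (11.25), gap junctions and the intercalated disc 2 of 13 (9.66), and neither the 21 cardiac transcription factors (11.53) nor the 14 potassium channels (9.94) had any. In the matrix list the small proteoglycan decorin (Dcn, 15.80 ± 0.07) and the collagen-binding Sparc (15.78 ± 0.13) had brighter probes than the collagen Col3a1 (11.70 ± 0.12).

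Which copy of each family gave the brightest probe was set out for 58 families, of which 57 had at least 2 expressed members. The order of the first 2 members was the same in every heart for 53 of the 57, and the SD of their difference over hearts had a median of 0.17. In 18 families the difference exceeded 4.23, the 90th percentile for 2 probes of the same gene. In 42 it exceeded 1.34, the median of such pairs. A family order within that spread may come from the probes alone.

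The troponin complex, which makes the thin filament respond to calcium, was led by its cardiac form at each subunit. Tnni3 gave 16.02, 15.86, 15.95 and 15.97 in hearts 1 to 4, and exceeded Tnni2 of fast skeletal muscle by 6.54 ± 0.34. The slow skeletal and fetal form, Tnni1, was above background in 1 heart only. Tnnt2 exceeded Tnnt1 by 4.83 ± 0.17, and Tnnc1, the form of slow and cardiac muscle, exceeded Tnnc2 by 10.03 ± 0.61. Each of these 3 differences was beyond the 90th percentile of same-gene probe pairs, as was that of the tropomyosins (Tpm1 over Tpm3, 4.83 ± 0.13) and of myosin binding protein C (Mybpc3 over Mybpc2, 6.80 ± 0.42). With the median probe of a gene in place of its brightest, Tpm4 and not Tpm1 led the tropomyosins.

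The myosins were less clear from these probes. Myh6 gave 17.93, 17.93, 17.90 and 18.02, but its other probe gave 13.78. The next brightest was Myh8, the perinatal heavy chain, at 14.85 ± 0.14, on 1 of 4 probes, while its other probes gave 9.93, 3.45 and 2.70 and the last 2 were below background. Myh7, the beta heavy chain of slow muscle and of the stressed heart, gave 13.73 ± 0.28. Probes for the adult fast skeletal chains Myh1, Myh2 and Myh4 and for the embryonic Myh3 were not above background in any heart. Among the light chains, Myl3 exceeded the non-muscle and smooth muscle Myl6 by 4.31 ± 0.17, and Myl2 exceeded Myl12a by 1.67 ± 0.14, an order that turned with the median probe of each gene. Cardiac actin Actc1 exceeded cytoplasmic Actb by 2.31 ± 0.20.

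In the Z disc families, Myoz2, a calcineurin-binding calsarcin of heart and slow muscle, exceeded Myoz3 by 9.75 ± 0.25, and Myoz1 was above background in 1 heart only. Actn2 exceeded Actn4 by 3.99 ± 0.18, which turned with the median probe of each gene, and Actn3 was not detected. Fhl2, a LIM protein of the cardiac sarcomere, gave 16.55 ± 0.10 and exceeded Fhl1 by 9.36 ± 0.10.

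Within the families of the sarcoplasmic reticulum, Atp2a2 had the brightest probe among the pumps, Ryr2 among the release channels and Casq2 among the calcium stores. The pump Atp2a2 (SERCA2) gave 15.38, 15.16, 15.28 and 15.35 and exceeded Atp2a1 by 3.40 ± 0.29, which is within the 4.23 that 2 probes of the same gene can differ by. Ryr2 exceeded Ryr3 by 8.13 ± 0.52, with Ryr1 not detected, and Casq2 exceeded Casq1 by 7.34 ± 0.66. Phospholamban (Pln), which brakes the pump, exceeded the atrial regulator sarcolipin (Sln) by 4.51 ± 1.75, an SD that came from Sln. At the surface membrane the brightest probes were not those of the copies best known in the ventricle. Slc8a3 gave 11.89, but its other probe gave 4.13 and was above background in 1 heart only. Slc8a1, the cardiac sodium-calcium exchanger, gave 8.67, with 2 more Slc8a1 probes at 6.60 and 5.78. Cacna1s of skeletal muscle gave 11.62, and 8.35 on its other probe. The cardiac L-type channel pore Cacna1c, named here after its value was seen, gave 7.204 on its only probe. These orders compare different probes, and whether they hold for the transcripts was not tested.

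Electrical coupling genes had modest probe signals. Among the connexins, Gja4 of endothelium gave 9.90 ± 0.12 and Gja1, the main connexin of working ventricular muscle, gave 9.66 ± 0.11, a difference of 0.25 ± 0.11 that is well within the spread of 2 probes for the same gene. Gja5 (connexin 40), whose locus drives the Cre in the mutants of this series and which marks the conduction system and arterial endothelium, gave 7.57, 7.09, 8.84 and 7.78 in hearts 1 to 4. It was highest in heart 3 on this probe, the brightest of 3. The others gave 5.16, above background in 3 hearts, and 2.98, not above background in any. Kcnj5 was the brightest inward rectifier at 12.002 ± 0.22, and Kcnj2 was above background in 3 hearts.

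The energy families are given next. Cox6a2, Cox7a1 and Cox8b, the heart and muscle forms of their cytochrome oxidase subunits, exceeded the next brightest copy by 2.25 ± 0.15, 2.88 ± 0.08 and 1.23 ± 0.03. These 3 differences are below 4.23, and that of Cox8b is below the 1.34 at which same-gene probes differ in the median. Cox4i1 exceeded Cox4i2 by 7.62 ± 0.19, and Slc25a4 exceeded Slc25a5 by 5.44 ± 0.15. The mitochondrial creatine kinase Ckmt2 exceeded the cytosolic muscle form Ckm by 2.28 ± 0.05. Among sugar genes, Pfkm exceeded Pfkl by 4.62 ± 0.10, Eno3 exceeded Eno1 by 2.95 ± 0.09, and the insulin-responsive glucose transporter Slc2a4 exceeded Slc2a8 by 3.67 ± 0.09. Lactate dehydrogenase gave Ldhb and Ldha close together, at 16.63 and 16.22, with a difference of 0.42 ± 0.13. For fatty acids, Fabp3 exceeded the endothelial and adipocyte Fabp4 by 1.43 ± 0.16, and Acsl1 exceeded Acsl4 by 5.82 ± 0.15. Cpt1b, the muscle carnitine palmitoyltransferase, had no probe assigned to it.

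The order was not fixed in 4 of the 57 families. Nppa and Nppb, the stretch-responsive natriuretic peptides, differed by 1.06 ± 1.48, with Nppb above Nppa in heart 1 and below it in the others. Ucp3 and Ucp2, Idh3g and Idh2, and Tbx5 and Tbx3 also changed order in 1 heart, with differences of 0.12 ± 0.18, 0.02 ± 0.11 and 0.24 ± 0.55. Gata6 and Gata4, zinc finger partners of Nkx2-5, were 0.10 ± 0.02 apart in every heart, which is far less than 2 probes of the same gene differ.

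**Figure D2:**
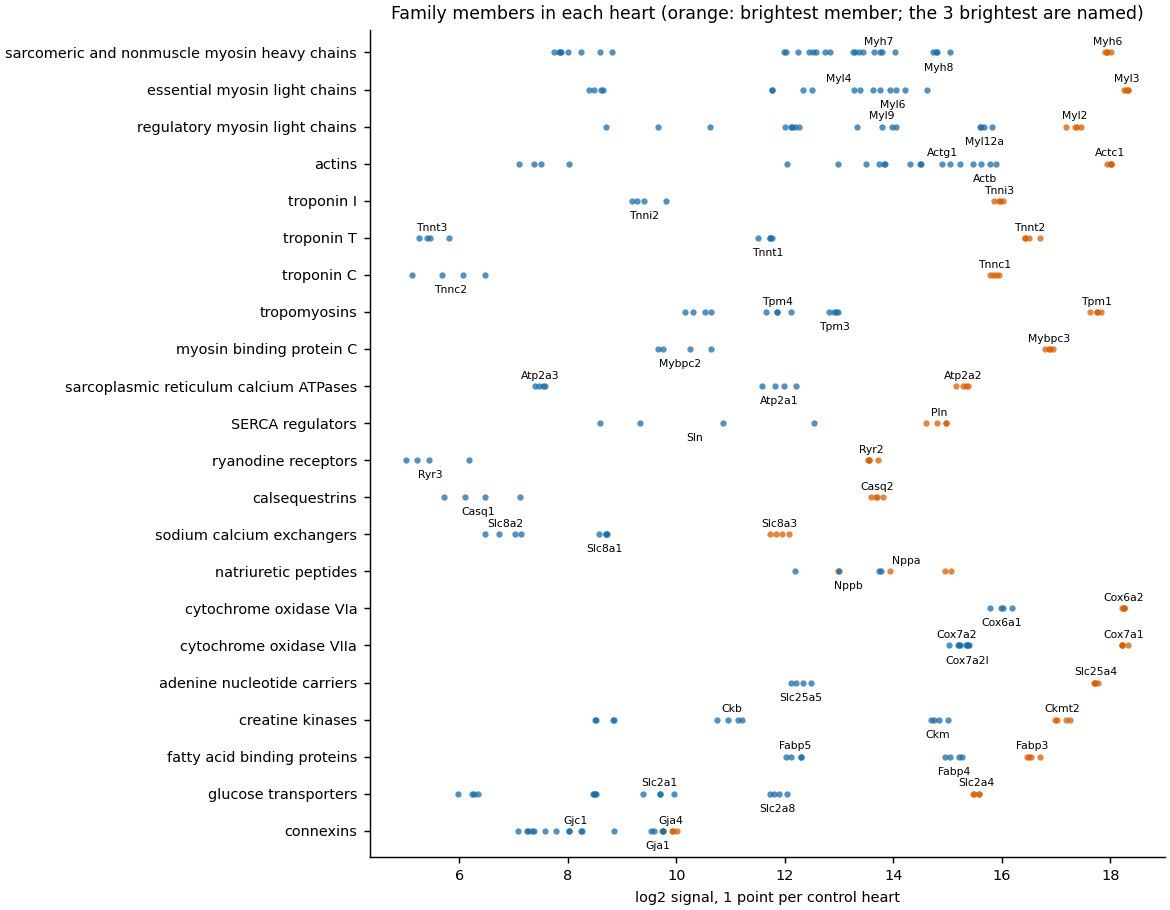
Log2 signal of the members of 22 gene families, with 1 point per heart and the brightest member of each family in orange. The points of the 4 hearts lie close together for Tnni3, Tnnt2, Ryr2 and Slc25a4, and apart for Sln and Nppa.

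The hearts were then compared for the genes that varied. The SD between hearts had a median of 0.153 over the expressed genes, with a 10th percentile of 0.06 and a 90th of 0.38. It fell with signal, from a median of 0.25 in the faintest 10% of genes to 0.09 in the brightest 10%. For 233 probes printed 10 times on each array, the SD between spots of 1 array had a median of 0.066 and the SD between hearts a median of 0.139, and the second was larger for 185 of the 233. The 10 spiked-in control probes, which receive the same RNA on every array, had a median SD of 0.138 between arrays. It was 0.118 for the 7 above a signal of 8. Their signals were shifted only by each array's 75th percentile, while gene values were quantile normalized, so these SDs are not directly comparable. With gene values also scaled by the 75th percentile, the median SD over expressed genes was 0.157.

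By range, 1081 genes (6.63%) had at least 1 between the highest and the lowest heart, which is 2-fold. A range of at least 2, which is 4-fold, was found for 149. The heart farthest from the others was heart 1 for 306 of the 1081 genes, heart 2 for 318, heart 3 for 259 and heart 4 for 198 (28.3%, 29.4%, 24.0% and 18.3%). Over all expressed genes the shares were 30.1%, 25.6%, 22.7% and 21.5%. Without heart 1 the count was 697 and without heart 2 it was 688, as a range over 3 hearts is smaller by construction. With another background correction (normexp) it was 476.

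**Figure D3:**
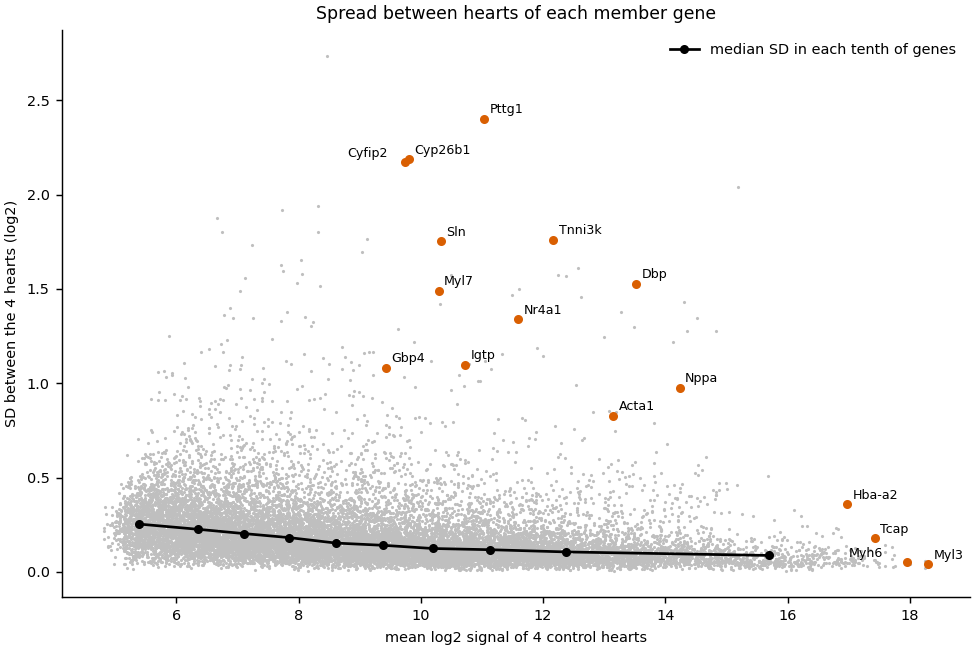
SD between the 4 hearts against mean log2 signal for each expressed gene, with the median in 10 bins of signal and several variable genes named. The median falls from 0.25 to 0.09 while Pttg1, Cyp26b1 and Cyfip2 exceed 2.

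The 100 genes with the largest SD among those above the median signal had SDs of 0.70 to 2.40. The values chose these genes, so they are given as a description. Of the 100, 52 had a probe with 1 RefSeq gene and no shared run, against 11026 of all 16314 expressed genes. Every heart was labelled high or low for each gene, so each gene divides the hearts 2 to 2 or 1 to 3 by construction. By these labels 47 had 2 hearts high and 2 low, and 53 had 1 heart labelled apart from the other 3. The labels do not require a clear gap. The gap between the middle 2 values was above 0.8 of the range for only 3 of the 100. In 15 of the 100 a further probe of the gene was expressed, and in 7 of these 15 the further probe split the hearts in the same way.

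Pttg1 (securin, an inhibitor of sister chromatid separation) had the largest SD, with 13.16, 13.07, 8.96 and 8.95 in hearts 1 to 4. Hearts 1 and 2 were high and hearts 3 and 4 low with no value between, and a fainter second probe, above background in 2 hearts, gave 5.93, 6.19, 3.72 and 2.45. Cyfip2, a subunit of the WAVE actin-regulating complex, gave 11.17, 12.02, 7.69 and 8.08. It split the hearts as Pttg1 did, and the probes of both lie 2.77 Mb apart on mouse chromosome 11 (build mm9). Cyp26b1, which degrades retinoic acid, gave 7.44, 11.10, 12.14 and 8.54, high in hearts 2 and 3.

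Other genes were set apart by 1 heart. Fbxo44, a ubiquitin ligase subunit, gave 9.79, 10.43, 6.51 and 9.72, low in heart 3, and its fainter second probe (6.93, 7.42, 4.56 and 7.05) was also lowest there. Tnni3k, a cardiac kinase that binds troponin I, gave 12.73, 9.60, 12.76 and 13.59, low in heart 2. A long intergenic RNA annotated at chr1:182685730-182689074 (mm9) gave 16.33, 16.17, 16.15 and 12.13, low in heart 4. Abhd1 was also low in heart 4, at 6.61 against 9.14 to 10.21. Cyp2b10, a xenobiotic-inducible cytochrome P450, was instead high in hearts 1 and 4 at 11.67 and 11.97, against 8.70 and 9.66.

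Several of the variable probes were related by sequence or by position. Of the 100, 28 fell into 7 groups of probes with at least 16 bases in common. In 4 of these groups, 14 probes in all, Wdr92 among them (14.98, 16.04, 12.83 and 14.24), every probe was highest in heart 2 and lowest in heart 3. The 14 are therefore not 14 separate observations. By position, 48 pairs of the 100 genes had probes within 5 Mb of each other, and 25 of the pairs (52.1%) split the hearts identically, against 10.3% of all 4950 pairs. The pairs include probes of 1 locus under several names (Malat1, NEAT2 and an intergenic RNA on chromosome 19), and the interferon-induced GTPases Igtp and Irgm2. They also include 6 probes on chromosome 2, all highest in heart 4, of which 4 share sequence. Every pairing of these 6 split the hearts identically, and these pairings make up most of the 25. The 25 pairs are therefore not 25 separate observations.

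Variation by function was followed in 23 lists of cell type and response genes with expressed members. Over all expressed genes, hearts 1 to 4 were highest for 28.2%, 23.4%, 24.1% and 24.3% and lowest for 27.0%, 26.4%, 24.6% and 22.1%. The interferon response list had the largest share of genes with a range of at least 1, and came after atrial muscle by its median SD. Of its 15 expressed genes, 14 (93.3%) had a range of at least 1, against 6.63% of all expressed genes, and 14 were highest in heart 3. Ifit3, an antiviral effector, gave 7.79, 6.53, 9.22 and 7.97 in hearts 1 to 4. The guanylate-binding proteins Gbp3 and Gbp2 gave 8.44, 8.51, 10.64 and 8.38, and 9.58, 9.42, 11.20 and 9.70. Irf7, the transcription factor that amplifies the response, gave 6.12, 6.10, 8.05 and 6.56. In each of these 4 genes heart 3 lay above every other heart by more than 1. Without heart 3 the list's median SD fell from 0.55 to 0.19.

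The antigen-presenting MHC class II genes pointed the same way. All 6 expressed genes were highest in heart 3, and 2 had a range of at least 1. H2-Ab1, a class II beta chain, gave 12.61, 12.44, 13.44 and 12.65, and H2-Aa gave 9.81, 9.84, 10.57 and 9.84. Without heart 3 the list's median SD fell from 0.37 to 0.11. Macrophage markers moved less, with 8 of 13 highest in heart 3 and none with a range of 1. Their summed linear signal was 16591 in heart 3 and 13301 to 13898 in the others. Whether more macrophages took part in the higher interferon and class II signals was not tested.

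Atrial muscle genes set heart 1 lowest. All 8 expressed genes of the list were lowest in heart 1, and 5 had a range of at least 1. Sln gave 8.59, 10.86, 12.55 and 9.33. Myl7, the atrial regulatory light chain, gave 8.70, 10.63, 12.19 and 9.66. Myl4, the atrial essential light chain, gave 11.77, 13.27, 14.61 and 12.33. Nppa, which both atrial and strained ventricular muscle make, gave 12.99, 14.96, 15.06 and 13.93. All 4 genes put the hearts in the order 3, 2, 4, 1. The other 4 of the 8, Dkk3, Clu, Stard10 and Nr2f2, did not follow this order, and the atrial factor Bmp10 was not above background in any heart. Without heart 1 the list's median SD fell from 0.77 to 0.44, and without heart 3 it was 0.73. The summed linear signal of the 8 genes was 66604, 113551, 128498 and 92357 in hearts 1 to 4. Low values in heart 1 were not particular to this list. In the skeletal muscle list, 6 of 7 expressed genes were also lowest in heart 1, and 2 had a range of at least 1. Whether atrial tissue took part in the values of the atrial genes was not tested.

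Clock genes set heart 1 apart. Of 16 expressed genes, 10 were lowest in heart 1 and 5 highest there, the latter near the share over all genes, and 5 had a range of at least 1. The PAR bZip factors, which the clock drives through E-box elements and which act at D-box elements, were low. Dbp gave 11.25, 14.01, 14.28 and 14.54, and its second probe gave 11.20, 13.76, 14.08 and 14.48. Tef gave 12.88, 13.62, 13.92 and 13.94, and Hlf gave 9.33, 9.98, 10.09 and 10.27. The repressors Nr1d1 and Nr1d2 (Rev-erb alpha and beta) were also lowest in heart 1, at 10.04 against 10.44 to 10.70 and at 8.84 against 9.47 to 9.69.

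Among the 5 genes highest in heart 1 were core activators and Per1. Arntl (Bmal1), a core activator that Rev-erb represses, gave 9.22, 8.17, 7.59 and 7.84. Clock, its partner, gave 7.98, 7.72, 7.11 and 7.02, and Nfil3, which competes with the PAR bZip factors, gave 11.37, 9.52, 9.50 and 9.25. Per1 gave 12.54, 11.82, 11.97 and 12.24. Per3 was not above background in heart 1 and gave 6.04, 6.39 and 6.29 in hearts 2 to 4. The time of day at which each heart was taken is not given in the sources used here. Without heart 1 the median SD of the clock list fell from 0.38 to 0.18. Because heart 1 also differs in its sex-linked genes, these 2 differences cannot be told apart from one another in 1 heart.

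The promoters of these genes were searched for the letters of the elements, on both strands, in the 250 bases before the gene start (RefSeq, GRCm38.p6). The palindrome CACGTG was present in 5 of 17 clock genes with a promoter in the table (29.4%), against 1634 of 27025 promoters (6.05%). TTATGTAA was present in 1 of the 17, against 0.862% of all. The 5 were Tef, Per1, Cry1, Bhlhe41 and Ciart, and neither Dbp nor Nr1d1 had a match in this window. The stretches below show the matches in capitals for Tef and Per1 (CACGTG) and for Per3 (TTATGTAA), each read on the strand of its gene. In heart 1 Tef was lowest, Per3 was not above background and Per1 was highest.
Tef: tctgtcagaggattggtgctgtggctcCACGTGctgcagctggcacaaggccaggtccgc
Per1: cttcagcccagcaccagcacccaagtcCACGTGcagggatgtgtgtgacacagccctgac
Per3: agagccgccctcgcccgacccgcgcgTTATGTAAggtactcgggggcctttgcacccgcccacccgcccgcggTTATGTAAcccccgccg

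The Tef stretch is chr15:81802519-81802578 (plus strand), the Per1 stretch chr11:69098756-69098815 (plus strand) and the Per3 stretch chr4:151044807-151044896 (minus strand). The matches start 127 bases before the gene start in Tef, 166 in Per1, and 205 and 158 in Per3.

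Acute response genes were also higher in heart 1. Of 14 expressed immediate early genes, 9 were highest in heart 1 and 9 lowest in heart 3, and 6 had a range of at least 1. Nr4a1, an orphan nuclear receptor, gave 13.33, 11.96, 10.42 and 10.67. Egr1, a zinc finger factor, gave 10.31, 8.94, 7.70 and 7.91, and the stress factor Atf3 gave 10.17, 8.03, 7.28 and 7.47. All 3 genes put the hearts in the order 1, 2, 4, 3. The median SD of the list went from 0.43 to 0.35 without heart 1 and likewise to 0.35 without heart 2. In the heat shock list, 11 of 14 genes were highest in heart 1, but only 2 had a range of at least 1, namely Hspa1a with Hspa1b, which share 1 probe and count as 1 gene here, and Hsph1. They gave 8.62, 6.77, 6.31 and 6.45, and 12.32, 11.64, 11.28 and 11.52. The list's median SD was 0.141, and 0.120 without heart 1.

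Of 15 fasting and glucocorticoid response genes, 8 had a range of at least 1. Cdkn1a, the cell cycle inhibitor p21, gave 11.84, 11.13, 8.75 and 9.56. Zbtb16, a glucocorticoid-induced factor, gave 13.53, 13.18, 11.43 and 11.98, and the kinase Sgk1 gave 11.62, 10.91, 9.45 and 9.98. These 3 genes shared the order 1, 2, 4, 3 with Nr4a1, Egr1 and Atf3. Cyr61 of the immediate early list did not follow it, at 12.29, 10.94, 10.82 and 10.73 in hearts 1 to 4. Of the 15 fasting and glucocorticoid genes, 6 were highest in heart 1 and 7 lowest in heart 3. Lcn2 and Angptl4, in the same list, were highest in heart 3 instead, at 10.60 and 11.31. The list's median SD was 0.474, and 0.545 without heart 1.

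**Figure D4:**
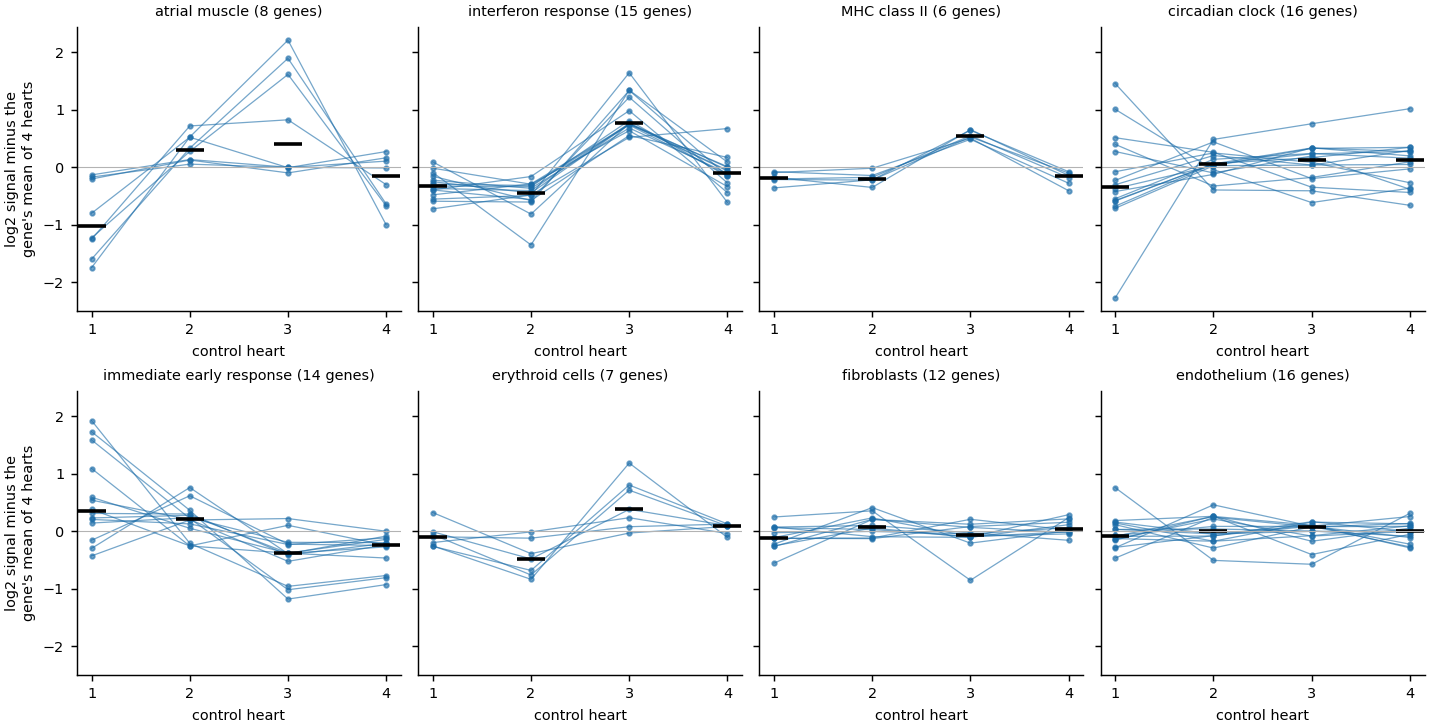
Log2 signal minus the mean of the gene over the 4 hearts, for the expressed genes of 8 lists, with 1 point per gene and heart. Heart 3 is highest for 14 of 15 interferon genes, and heart 1 is lowest for 8 of 8 atrial genes and 10 of 16 clock genes.

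Among cell type lists, 3 of 7 erythroid genes, 5 of 10 adipocyte genes and 2 of 3 epicardial genes had a range of at least 1. The share over all expressed genes was 6.63%. In the erythroid list 5 of 7 genes were highest in heart 3 and 6 lowest in heart 2. The alpha globins, read by a probe for Hba-a1 and Hba-a2, gave 16.97, 16.50, 17.36 and 17.07, and Hbb-b2 gave 12.83, 12.25, 14.27 and 12.97. Without heart 2 the list's median SD fell from 0.359 to 0.218. Fibroblast, endothelial and smooth muscle genes had 1 gene each with a range of at least 1, of 12, 16 and 12 expressed genes, namely Postn, Esam and Acta2. Their median SDs of 0.16, 0.18 and 0.11 stood beside 0.153 for all expressed genes. No proliferation gene of 8 had a range of 1. In lists this short, the counts for fibroblast, endothelial, smooth muscle and proliferation genes lie near the 6.63% of all expressed genes.

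A last set of probes was above background in only some of the hearts, on 1 array for 2533 probes, on 2 for 1500 and on 3 for 1444. Of the first, 1233 were seen in heart 1, 841 in heart 2, 310 in heart 3 and 149 in heart 4. The number was smallest in heart 4, whose lowest detectable signal was the highest. The folds below set the mean of the hearts with the probe above background against the lowest detectable signal of the others.

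The widest differences were single-heart signals in heart 4. A long intergenic RNA annotated at chr9:24292762-24307562 (mm9) gave 15.05 in heart 4 and was not above background in the others, at least 1421-fold lower. AF529169, a gene on the same chromosome, gave 14.59 in heart 4 alone, at least 1031-fold higher, and Pip5k1b, a lipid kinase, gave 12.71 in heart 4 alone, at least 281-fold higher. Ccdc73 and Mrap2 were each seen in 1 heart as well, in heart 4 at 8.77 and in heart 2 at 8.56. All 3 probes of Mrap2 were above background in heart 2 only.

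Other genes were missing in a single heart. Trim12a, an antiviral tripartite motif protein, gave 8.94, 9.14 and 9.24 in hearts 1, 2 and 4 and was not above background in heart 3 on either of its 2 probes, at least 20.5-fold lower on the brighter. Ifi202b, an interferon-inducible DNA sensor, gave 7.62, 8.54 and 7.73 in hearts 1 to 3 and was not above background in heart 4 on either of 2 probes.

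For Thumpd1, which aids tRNA acetylation, 2 probes differed. The probe starting at 126858835 on chromosome 7 (mm9, minus strand) gave 9.40, 9.16 and 10.27 in hearts 1 to 3 and was not above background in heart 4, while a probe starting 175 bases away gave 9.90, 9.73, 9.83 and 9.78. The 2 probes begin with the bases below.
Thumpd1, probe seen in 3 hearts: tgtgctagcgtacaggtgatccagggtagg
Thumpd1, probe seen in 4 hearts: gctgaatacagttctcagatatttttactg

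For Synm, an intermediate filament protein, a probe at 7.08, 8.36 and 7.52 in hearts 1, 2 and 4 was not above background in heart 3, while its brightest probe gave 8.29, 7.86, 8.92 and 8.53. A fainter Synm probe, at 4.58 to 4.92 in the 4 hearts, was above background in 3. For Trim12a, Ifi202b and Mrap2 every probe was absent in the same hearts, and for Thumpd1 and Synm other probes were above background in all 4 hearts.

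The sex-linked genes completed this set. Eif2s3y, the Y-linked translation factor subunit, gave 10.29 in heart 1 and 5.05 in heart 2, and was not above background in hearts 3 and 4. Ddx3y was at least 44.5-fold higher in heart 1 than the lowest detectable signal of the others. The brightest of 5 probes in the Xist locus gave 11.09, 11.07 and 11.47 in hearts 2 to 4, at least 107-fold above heart 1. The X-linked genes known to escape inactivation, Kdm6a, Kdm5c, Ddx3x and Eif2s3x, were lowest in heart 1 on their brightest probes. A further Eif2s3x probe gave 10.15 in heart 1 and 7.30 to 7.37 in the others. Probes for Kdm5d, Uty, Usp9y, Zfy1 and Zfy2 were not above background in any heart.

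**Figure D5:**
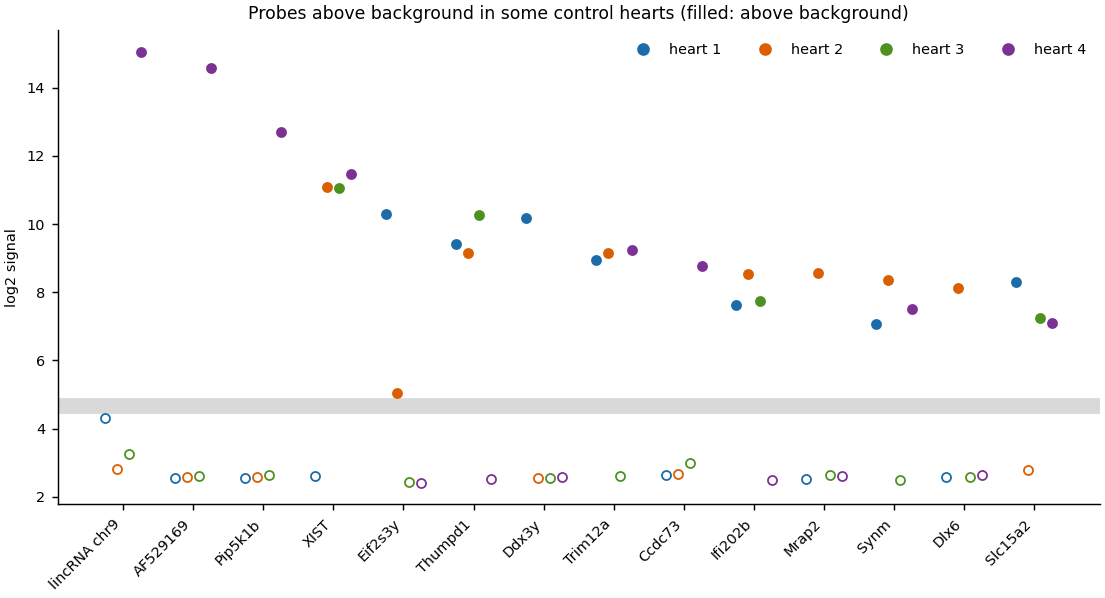
Log2 signal per heart of 14 genes that were above background in 1 to 3 hearts, with filled points above background and open points not. The grey band spans the lowest detectable signals of the 4 arrays, 4.47 to 4.86.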

How the data were processed

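Total RNA from left ventricles was labelled with Cy3 and hybridised to Agilent SurePrint G3 8x60K mouse arrays, 1 mouse per array. The authors deposited the scanner output of each array, made with Feature Extraction 10.5, in which the processed signal is a background-corrected intensity. Their table of log2 values, which the authors made by quantile normalization with a filter at 75%, was used as an alternative. Only the 4 control arrays were described, and all 12 were used in 1 alternative normalization. Control spots (3671 of 62976) and outlier spots (93 to 130 per array) were left out, log2 signals were quantile normalized in limma 3.58.1 (R 4.3.3), and repeated spots were then averaged. A gene was shown by its brightest expressed probe. The number of arrays limits the precision. Probe names and mm9 positions are those of the files, and listed accessions were matched to RefSeq. Of the expressed probes, 14719 matched 1 RefSeq gene, 251 several and 6750 none.

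Genes were named as the 30 brightest, the first 2 and the undetected members of each family, the 30 most variable above the median signal and the 10 most variable of all, up to 4 per variation list, and the 10 widest among partly detected probes, with clone and locus names mostly only counted. Further list genes named in the text were chosen after their values were seen. Gene lists and members were chosen with earlier results of these data known. Some named genes are not reported here. No significance test between groups was run, since no groups were compared. A critical value was used only to flag named genes for a closer look. Quantile normalization and the recovery of added spread between arrays, among brighter probes, were tested on simulated data, and the other steps were not.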

Additional observations from a re-analysis of the deposited data

Results flagged for a closer look

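For 127 named genes, the gap between the most distant heart and its nearest neighbour was divided by the range over the 4 hearts. In 18 genes this ratio passed Dixon's 95% critical value for 4 samples, which about 1 in 20 groups pass by chance. That rate does not apply to genes chosen for their spread, as many of these were, so the ratios are a description and not a test.

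Among the genes with wide ranges, the long intergenic RNA at chr1:182685730-182689074 had a ratio of 0.957 (heart 4 low), Dbp 0.838 (heart 1 low) and Dnahc8, a dynein heavy chain, 0.894 (heart 2 high, 9.43 against a median of 5.87 for the others). Heart 3 was the high one for the interferon-induced Gbp3 (0.945) and Gbp2 (0.838) and for the class II gene H2-Aa (0.960). Heart 1 was high for Nfil3 (0.874) and for the immediate early gene Cyr61 (0.865, 12.29 against 10.82).

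Several cell type markers also had 1 distant heart. Postn of activated fibroblasts had a ratio of 0.902 (heart 3 low, 5.57 against 6.67), Adipoq of adipocytes 0.903 (heart 4 high, 8.19 against 7.08), Lum of fibroblasts 0.878 (heart 1 low, 11.30 against 12.06), S100b of glia 0.895 (heart 3 low, 7.35 against 7.96) and Kit of mast cells 0.916 (heart 2 low, 6.28 against 6.83).

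Among the brightest genes, Aldoa (0.9997), Cox6a2 (0.9996), Cox7a1 (0.9989), Actc1 (0.9975) and Cryab (0.866) were set apart by ranges of only 0.05, 0.04, 0.12, 0.09 and 0.14. At the top of the ranking, quantile normalization gives each rank 1 value on every array, so such a range is a step between neighbouring ranks.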

How the results depend on the processing

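The median SD between hearts of 0.153 was 0.117 with normexp background correction and 0.146 in the authors' table, and 0.135 to 0.152 with 1 heart left out. The number of genes with a range of at least 1 was 1081, fell to 476 with normexp, and was 688 to 832 with 1 heart left out. The expressed genes numbered 16182 to 17172 over all alternatives. Of the 100 brightest genes 79 (median of a gene's probes) to 100 were kept, and of the 100 most variable 67 (the authors' table) to 100. The brightest member was kept in 49 (median of a gene's probes) to 58 of 58 families. With the median probe the brightest member changed in 9 families, among them Myl2 to Myl12a, Tpm1 to Tpm4, Actn2 to Actn4 and Cryab to Hspb6. Leaving out probes of several genes was chosen after seeing the data. Of 230 values for the median SD of the variation lists, 49 moved by more than the spread set for them. The cause of these shifts was not tested beyond what leaving out a heart shows. Faint probes limit the comparisons, since the lowest detectable signal differed between arrays. No paired analysis was possible because no groups were compared.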
